A study of Mus musculus with 2 samples.

Results

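Leukemia cells that carried many transcripts of G2 and mitosis were compared with the other leukemia cells of the same sort and between an oil and a tamoxifen group of mice. The cells were selected on their own transcripts. Kept were barcodes in which 500 or more genes were detected and no more than 10% of unique molecular identifiers (UMIs, 1 per captured transcript) came from mitochondrial genes. The 13310 kept cells of both libraries were ranked together by the share of UMIs from Top2a, Mki67, Cenpf, Ube2c, Cdk1, Nusap1, Tpx2 and Cenpe. The 20% with the highest share, 2662 cells, were taken as the G2 and mitosis cells, and the other 10648 cells are called the other cells.

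The leukemia was driven by AE9a, a shortened AML1-ETO fusion protein, in GFP-marked cells with floxed Usp18 and with UBCER-Cre, a tamoxifen-dependent recombinase. Usp18 removes the ubiquitin-like protein ISG15 from its targets and restrains interferon signalling. After the recipients fell ill they were given oil or tamoxifen, and GFP+ Lin- c-Kit+ spleen cells were taken 3 days after the first injection, with 3 mice pooled and 8000 cells targeted in each group. No label ties a cell to a mouse, so each group is 1 library.

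Both groups carried AE9a, UBCER-Cre and the floxed gene. The genotype labels read Usp18f/f for the oil group and Usp18∆/∆ for the tamoxifen group, whereas the treatment protocol of both samples reads Usp18+/f with 1 allele lost. The labels thus disagree, and the groups are named by injection only. Both sample titles read batch 2. The oil-labelled library held 7774 barcodes and 70239576 UMIs, of which 6838 cells were kept, and the tamoxifen-labelled library held 7311 barcodes and 65028672 UMIs, of which 6472 cells were kept. The libraries shared 12 barcodes among kept cells, and no barcode was a G2 and mitosis cell in both. With 1 library in each group nothing could be tested, and every difference is a difference between these libraries. Levels are given as CPM, each count scaled by the total UMIs of the summed cells, with 95% exact intervals that cover counting error only.

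As background, a dividing cell copies its DNA in S phase, checks and prepares it in G2, and parts the chromosomes in mitosis. Cyclins A and B bring Cdk1 to activity, Aurora and Polo kinases build the spindle and correct its attachments, and the anaphase promoting complex then destroys cyclin B and securin. Many of these genes are held down in resting cells by the DREAM complex and switched on together in G2 through the B-Myb and FoxM1 complexes. These complexes act on promoters with a cell cycle homology region and CCAAT boxes.

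The 8 genes of the ranking serve different steps. Cdk1 is the kinase that starts mitosis, and Ube2c is the ubiquitin-conjugating enzyme of the anaphase promoting complex. Top2a untangles sister DNA, and Mki67 coats mitotic chromosomes. Cenpf and Cenpe act at the kinetochore, where chromosomes meet the spindle, and Nusap1 and Tpx2 bind spindle microtubules. Since these complexes act on promoters with such short letters, the promoters of 4 of these genes are shown. The windows run from 250 bases before the RefSeq start site to 50 bases after it (GRCm38.p6, the assembly that mm10 names), in the direction of the gene. Capitals mark TTTGAA and TTCGAA, letters found in the cell cycle homology region, and CCAAT, the CCAAT box, on either strand, so that TTCAAA and ATTGG are also in capitals. Neighbouring matches can share bases.
Top2a (chr11:99024140-99024439, minus strand): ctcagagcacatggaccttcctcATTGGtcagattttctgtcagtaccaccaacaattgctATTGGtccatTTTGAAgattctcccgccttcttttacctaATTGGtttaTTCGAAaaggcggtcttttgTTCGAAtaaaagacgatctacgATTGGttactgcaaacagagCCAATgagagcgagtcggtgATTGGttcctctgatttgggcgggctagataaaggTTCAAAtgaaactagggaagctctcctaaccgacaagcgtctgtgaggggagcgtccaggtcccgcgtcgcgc
Ube2c (chr2:164769679-164769978, plus strand): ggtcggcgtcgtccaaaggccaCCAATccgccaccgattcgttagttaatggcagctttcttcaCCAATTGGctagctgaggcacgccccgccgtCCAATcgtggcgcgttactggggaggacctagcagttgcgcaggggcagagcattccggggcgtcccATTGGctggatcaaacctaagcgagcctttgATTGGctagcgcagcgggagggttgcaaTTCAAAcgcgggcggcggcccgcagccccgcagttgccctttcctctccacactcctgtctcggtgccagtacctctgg
Cdk1 (chr10:69352863-69353162, minus strand): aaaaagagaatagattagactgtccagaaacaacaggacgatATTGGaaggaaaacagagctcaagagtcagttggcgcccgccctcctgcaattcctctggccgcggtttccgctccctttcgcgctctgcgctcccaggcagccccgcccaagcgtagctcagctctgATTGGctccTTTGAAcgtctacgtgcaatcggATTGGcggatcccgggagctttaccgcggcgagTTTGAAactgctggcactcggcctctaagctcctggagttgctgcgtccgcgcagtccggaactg
Cenpf (chr1:189688037-189688336, minus strand): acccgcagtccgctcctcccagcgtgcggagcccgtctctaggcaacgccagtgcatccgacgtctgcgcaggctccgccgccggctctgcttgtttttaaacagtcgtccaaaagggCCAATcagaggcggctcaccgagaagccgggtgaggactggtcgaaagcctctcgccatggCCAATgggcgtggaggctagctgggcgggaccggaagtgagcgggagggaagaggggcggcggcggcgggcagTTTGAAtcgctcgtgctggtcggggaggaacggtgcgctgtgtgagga

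The Top2a window held 6 CCAAT boxes, as did that of Ube2c. The table of promoters matched 7 of the 8 genes, and TTTGAA or TTCGAA stood in 5 of the 7 windows and CCAAT in 6. Every window shown held both kinds of letters. Of those not shown, the Nusap1 window held none of them, and the Cenpe window held 1 CCAAT but neither TTTGAA nor TTCGAA. Of 128 other mitosis genes, 107 matched, with 121 windows. TTTGAA or TTCGAA was in 57.9% of these windows against 19.2% of all 32851 windows, and CCAAT was in 66.1% against 37.4%. Both kinds of letters stood together in 44.6% of the mitosis windows and in 7.52% of all windows. Windows of S phase genes held TTTGAA or TTCGAA less often, in 15.6% of 32, but CCAAT in 65.6%. A match of letters is a description of the sequence and not a bound site.

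The last cell inside had 0.16006% of its UMIs in the 8 genes and the first cell outside had 0.16001%. The median was 0.383% among the selected cells and 0.0118% among the other cells, and the highest cell reached 1.75%. A selected cell held between 2 and 251 UMIs of the 8 genes with a median of 52. All 8 genes were seen in 1513 selected cells, 51 selected cells showed at most 2 of them, and 50 had fewer than 5 such UMIs. Within 10% of the cut lay 129 cells inside and 168 outside, so the selection is a range along a score and not a separate type.

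The oil-labelled library gave more of the selected cells. They were 1603 of 6838 kept cells there, 23.4% (22.4 to 24.5), and 1059 of 6472 in the tamoxifen-labelled library, 16.4% (15.5 to 17.3). The log2 ratio of the shares was -0.52 (-0.63 to -0.41), a gap of 7.08 percentage points. The oil-labelled library also stood higher when the ranking was cut at 10% (11.9% against 8.0%) and at 30% (34.9% against 24.9%). Ranked instead by the 128 mitosis genes that the selection did not use, the highest 20% of cells again held 1603 cells of the oil-labelled library and 1059 of the other. These were not all the same cells, since 2231 cells, 83.8% of each set, were in both.

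**Figure D1:**
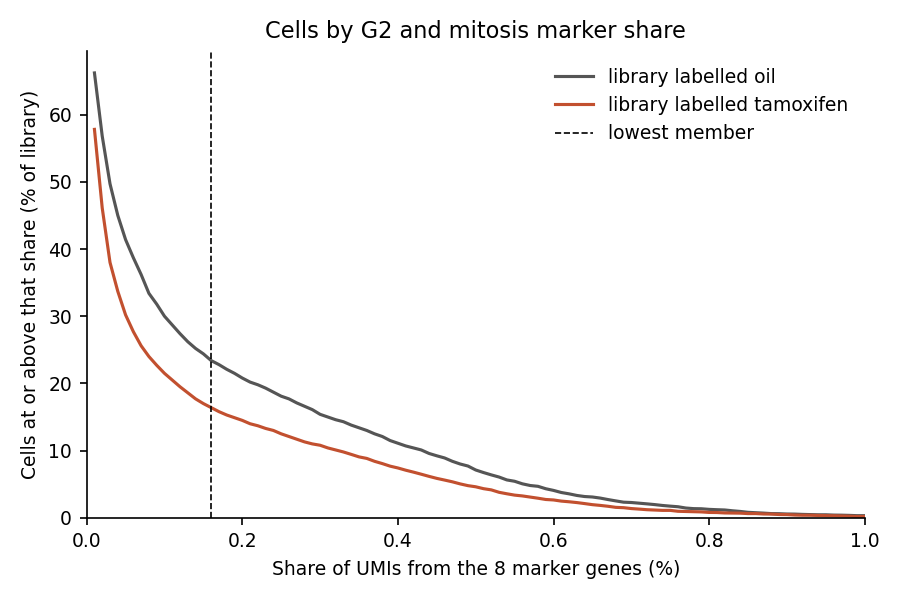
The share of kept cells (vertical axis, percent of each library) whose UMIs from the 8 marker genes reach a given percentage (horizontal axis), with 1 line per library and a dashed line at the lowest selected cell. The line of the oil-labelled library lies above that of the tamoxifen-labelled library at the cut, 23.4% against 16.4%.

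The selected cells also yielded more RNA. Their median was 14696 UMIs against 7498 in the other cells of the oil-labelled library, a ratio of 1.96, and 14640 against 7377 in the tamoxifen-labelled library, a ratio of 1.98. Detected genes had medians of 3795 against 2568 and of 3686 against 2448. A lower CPM in the selected cells is a smaller share of UMIs and need not mean fewer transcripts per cell. Mitochondrial UMIs differed little, with medians of 6.46% against 6.97% and of 6.53% against 6.91%. Among the 6% of cells with the most UMIs, 81.5% (77.4 to 85.1) in the oil-labelled library and 63.1% (58.1 to 68.0) in the tamoxifen-labelled library were selected cells. Droplets with more than 1 cell also raise UMIs, no doublet caller was applied, and their part in these values was not tested. Without these deepest cells the shares were 23.6% and 16.2%. When every cell was thinned to 3000 UMIs before ranking, they were 24.6% and 15.3%.

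The 8 genes themselves give the size of the selection, which is a description because they made it. Top2a had 761 CPM in the selected cells and 55.8 in the other cells of the oil-labelled library, and 770 and 41.2 in the tamoxifen-labelled library. Mki67 had 1133 and 170 CPM in the oil-labelled library, and 1150 and 123 in the tamoxifen-labelled library. Ube2c had 881 and 63.9 CPM, and then 804 and 53.9. Nusap1 stood furthest apart, with 215 and 9.46 CPM in the oil-labelled library and 231 and 9.21 in the tamoxifen-labelled library. In both libraries the selected cells thus lay far above the rest. At 3000 UMIs per cell, Top2a would be seen in 82.2% of selected cells and 9.25% of other cells in the oil-labelled library. Without thinning the shares were 92.8% and 19.3%. The level that free RNA alone would give was not measured and is not known.

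Mitosis genes outside the rule were higher in the selected cells as well. Of 10527 genes with at least 100 UMIs, 296 (2.81%) were at least 2-fold higher in the selected cells in both libraries and 477 (4.53%) at least 2-fold lower. Of the 128 mitosis genes that the rule did not use, 101 were at least 2-fold higher in both libraries, none was 2-fold lower, and 123 were higher in both. Their median log2 ratio, taken as the mean of the libraries, was 2.19, beside -0.095 over all genes. Of all 10527 genes, 6293 were lower in the selected cells of the oil-labelled library and 6172 in those of the tamoxifen-labelled library. The mitosis lists and the 8 markers make up 109 of the 296 genes, and replication histones 48. The cells were selected within the same contrast, so these counts describe the set and are no test.

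All 12 genes that encode mitotic cyclins or control Cdk1 were higher in both libraries, 9 of them at least 2-fold, with a median log2 ratio of 1.51. Ccnb1, cyclin B1, had 254 CPM in the selected and 36.0 in the other cells of the oil-labelled library, and 229 and 26.4 in the tamoxifen-labelled library. Ccnf, the cyclin F subunit of a ubiquitin ligase, led the list with 54.5 against 3.72 CPM and 56.2 against 3.11. Cdc25c, a phosphatase that activates Cdk1, had a log2 ratio of 3.01. Cdc25a, which also acts at entry into S phase, and Wee1, which inhibits Cdk1, stood lowest at 0.24 and 0.39.

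Of the mitotic kinases and the passenger complex, all 17 genes were at least 2-fold higher in both libraries, with a median log2 ratio of 2.69. Plk1, the Polo kinase, had 115 against 7.59 CPM in the oil-labelled library and 104 against 5.99 in the tamoxifen-labelled library. Aurka, the kinase of the spindle poles, had 75.4 against 4.88 CPM and 74.0 against 4.39. Aurkb, the kinase of the passenger complex, had a log2 ratio of 3.70. Haspin, which marks histone H3 at the centromere, stood lowest at 1.85.

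Structural parts of the mitotic machine showed the same direction with a wider range. Spindle proteins and kinesins had a median log2 ratio of 2.91, and 23 of 25 genes were at least 2-fold higher in both libraries. Kif11, the kinesin that pushes spindle poles apart, had 196 against 13.1 CPM in the oil-labelled library and 193 against 10.8 in the tamoxifen-labelled library. Stmn1, which destabilises microtubules, and the tubulin Tubb4b stood lower at 0.88 and 1.45. At the centromere and kinetochore 26 of 31 genes were 2-fold higher, with a median of 1.78. Cenpt, a subunit of the inner kinetochore, had a log2 ratio of 0.65.

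Cytokinesis genes had a median of 2.54, and 10 of 11 were 2-fold higher. Prc1, which bundles microtubules of the central spindle, was at 290 against 18.6 CPM in the oil-labelled library and 316 against 15.1 in the tamoxifen-labelled library. Condensin and related genes had a median of 1.89, with 10 of 13 2-fold higher. Ncapg, a condensin subunit, had a log2 ratio of 2.72, and the condensin II subunit Ncaph2 one of 0.64.

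The anaphase promoting complex stood apart. Its median was 0.33, and 6 of 19 genes were 2-fold higher. Its activator Cdc20 had 253 against 55.5 CPM in the oil-labelled library and 228 against 42.4 in the tamoxifen-labelled library. Espl1, the separase that cuts cohesin, had a log2 ratio of 3.37, and Fbxo5, an inhibitor of the complex, one of 1.93. Lower in both libraries were 4 genes, among them Pttg1, the securin that holds separase, at 42.1 against 49.9 CPM and 35.4 against 46.5. Anapc13 and Cdc26, small subunits of the complex, had log2 ratios of -0.13 and -0.12.

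Among the transcription factors of G2 the regulators differed in size. Foxm1 was at 34.5 against 5.30 CPM in the oil-labelled library and 36.4 against 3.93 in the tamoxifen-labelled library, a log2 ratio of 2.96. E2f8, a repressor of late S phase, and Lin9, a shared subunit of the DREAM and B-Myb complexes, both had 1.53. Rbl2, the p130 pocket protein of DREAM in resting cells, was lower, at 45.7 against 53.5 CPM and 50.6 against 61.9. Of the list, 14 of 15 genes were higher in both libraries and 4 were 2-fold higher.

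**Figure D2:**
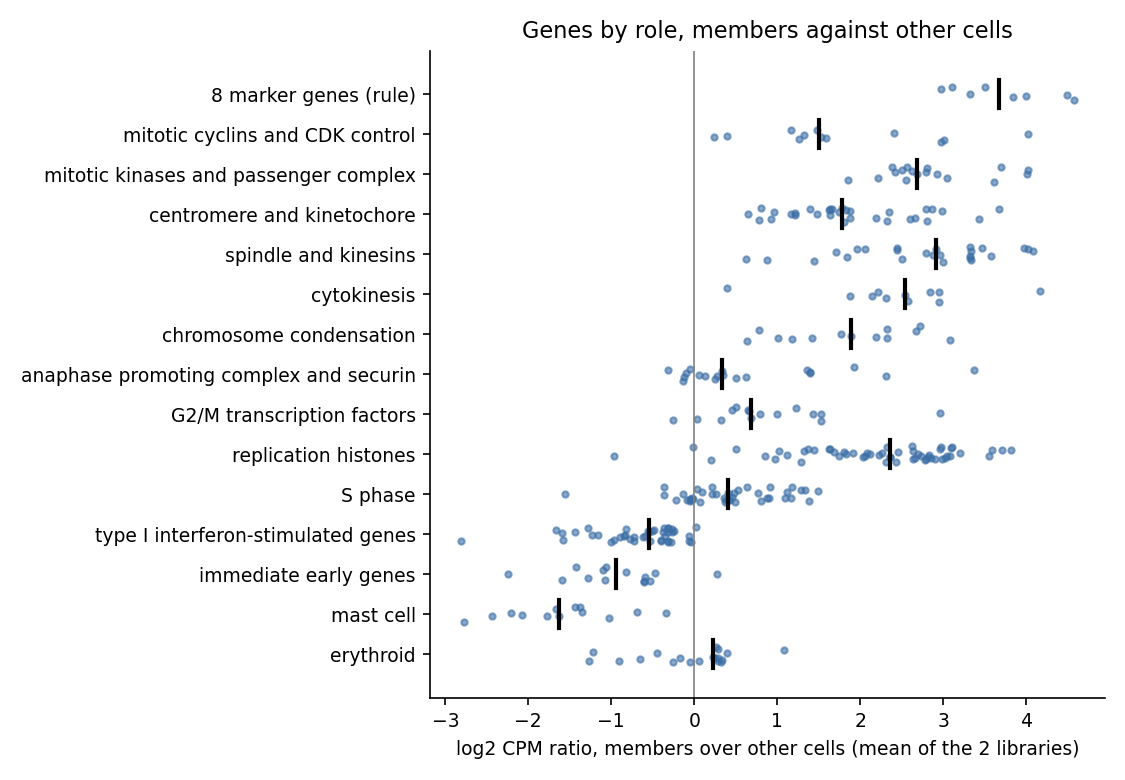
Each point is 1 gene with at least 100 UMIs, placed by the log2 CPM ratio of selected cells (members) over other cells, mean of both libraries (horizontal axis), in rows by role, and black bars are row medians. Kinases, spindle and cytokinesis rows centre between 2.54 and 2.91, the anaphase promoting complex at 0.33, S phase genes at 0.41 and mast cell genes at -1.63.

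Transcripts of DNA replication were present in the selected cells but were not particular to them. Of 41 S phase genes, 27 were higher in both libraries and 6 lower in both, 5 were 2-fold higher and 1, Ung, 2-fold lower. Of all 10527 genes, 40.2% were higher in the oil-labelled library and 41.4% in the tamoxifen-labelled library. At least 2-fold in both, 2.81% were higher and 4.53% lower. The median log2 ratio was 0.41, and with the highest 10% of cells in place of 20% it was -0.054. Rad51ap1, a repair factor, led at 54.8 against 25.0 CPM and 63.6 against 17.6. Rrm1, a subunit of ribonucleotide reductase, had a log2 ratio of 1.34. Ung, which removes uracil from DNA, had 11.0 against 37.2 CPM and 8.91 against 22.9. The highest 20% of cells by S phase genes shared 966 cells with the selected cells, 36.3% of either set.

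Replication histones were among the genes furthest apart. They carry no poly(A) tail in most of their transcripts, and are named here as the matrix lists them, since near-identical copies can share reads. Of 56 measured histone genes, 48 were at least 2-fold higher in both libraries, with a median log2 ratio of 2.36. Summed over the list they had 3107 against 864 CPM in the oil-labelled library and 3180 against 679 in the tamoxifen-labelled library. Hist1h2bc went the other way, at 60.2 against 112 CPM and 43.0 against 88.4.

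Position along the ranking separated these programmes. In 10 equal bins of all kept cells, the 128 mitosis genes went from 23259 CPM in the highest bin of the oil-labelled library to 16638 in the second and 12409 in the third. S phase genes had 3240 CPM in the highest bin, 4465 in the second and their peak of 4760 in the third, which lies just outside the selection. Replication histones had 3199 and 3011 CPM in the 2 highest bins and 1571 in the third. The tamoxifen-labelled library showed the same order, with S phase genes at 3083, 4056 and 4082 CPM and histones at 3279, 3079 and 1526. The last 3 bins hold only cells without a UMI of the 8 genes, whose order is arbitrary, and these cells had medians from 4942 to 5639 UMIs.

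The selected cells also varied among themselves. Cut into 4 bins by marker share, Ccnb1 went from 397 CPM in the highest bin to 290, 195 and 121 in the oil-labelled library, and from 364 to 267, 173 and 121 in the tamoxifen-labelled library. Plk1 went from 180 to 48.6 CPM and from 182 to 44.0. S phase genes ran the opposite way, from 2957 to 4863 CPM in the oil-labelled library and from 2879 to 4351 in the tamoxifen-labelled library. Pcna, the sliding clamp of DNA polymerase, had 80.5 CPM in the highest and 161 in the lowest bin of the oil-labelled library. The linker histone Hist1h1b also went up towards the lowest bin, from 529 to 767 CPM and from 610 to 713. The lower part of the selection thus carried more replication transcripts than the upper part in each library. These 4 bins had medians from 13088 to 15925 UMIs.

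**Figure D3:**
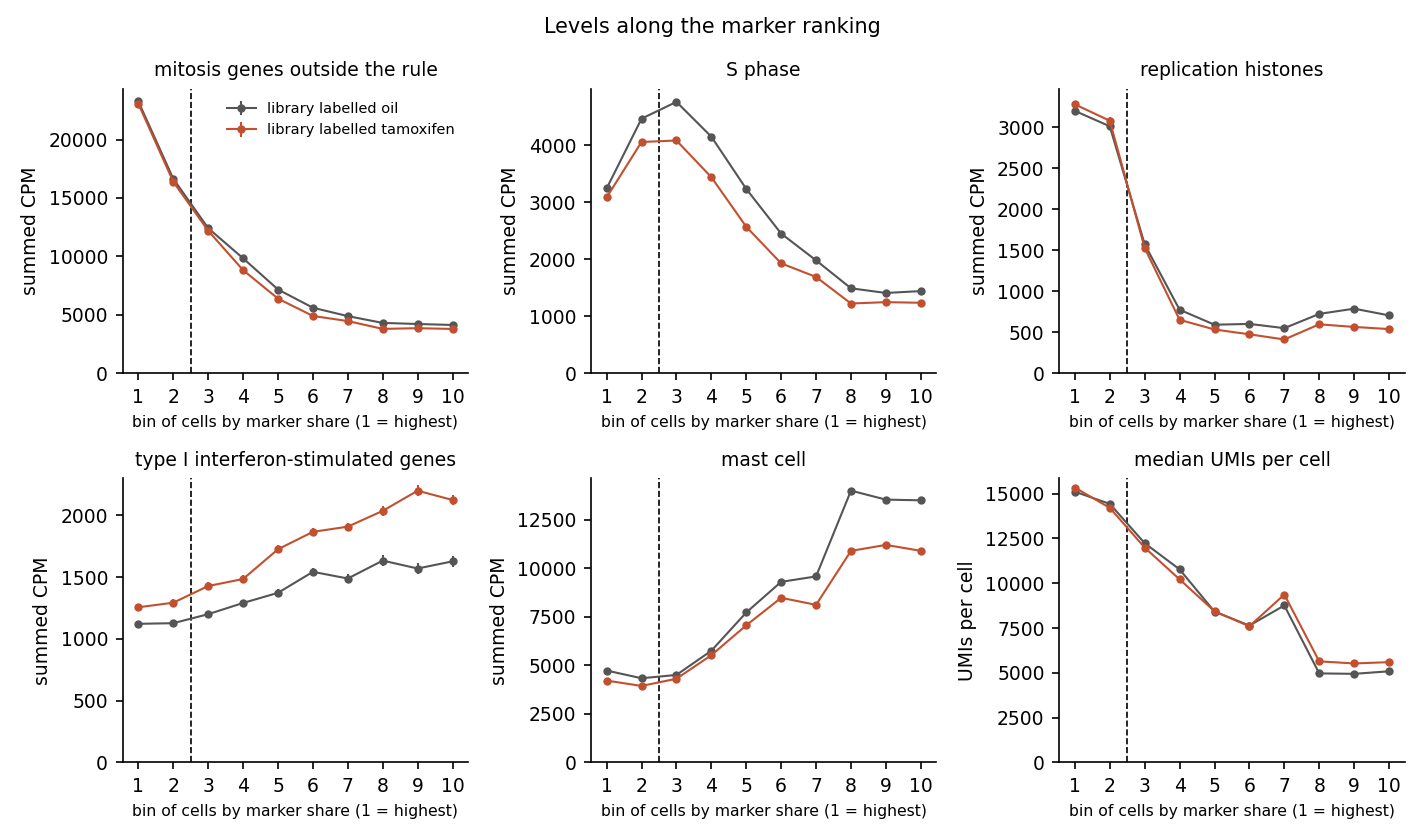
Summed CPM of 5 gene lists and the median UMIs per cell (vertical axes) in 10 bins of all kept cells by marker share (horizontal axis, 1 is the highest), 1 line per library, with 95% counting intervals as bars on the CPM panels and a dashed line at the edge of the selection. Mitosis genes and histones are highest in bins 1 and 2, S phase genes peak in bin 3, and interferon and mast cell genes increase towards the cells with no marker UMI.

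Mast cell genes were lower in the selected cells. The leukemia cells carried transcripts of mast cell granules. All 13 measured genes of that list were lower in both libraries, 9 of them at least 2-fold, with a median log2 ratio of -1.63. Of all 10527 genes, 6293 were lower in the oil-labelled library and 6172 in the tamoxifen-labelled library, and 4.53% were at least 2-fold lower in both. Cpa3, a granule carboxypeptidase, had 94.7 against 487 CPM in the oil-labelled library and 70.6 against 406 in the tamoxifen-labelled library. Cma1, a chymase, had 152 against 710 CPM and 116 against 531. Hdc, which makes histamine, had a log2 ratio of -1.03, and Ms4a2, the beta chain of the IgE receptor, one of -0.34. Only 73 cells, 2.74% of either set, were both selected cells and among the highest 20% by mast cell genes, where each set held 20% of all kept cells.

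Among genes with at least 20 CPM in the selected or other cells of either library, the 10 lowest held 3 mast cell genes and genes of other kinds. Tcp11l2, the lowest, had 2.63 against 26.9 CPM in the oil-labelled library and 3.84 against 31.2 in the tamoxifen-labelled library. Sgk1, a serum- and steroid-regulated kinase, had 16.8 against 123 CPM and 26.3 against 170. Mxd4, a MAX partner that opposes MYC, had 14.8 against 73.2 CPM and 17.7 against 86.1. Mxd3 of the same family was at the other end, with 35.3 against 2.54 CPM and 33.2 against 1.39. Klf2, linked to quiescence in lymphocytes, had a log2 ratio of -2.24. Of the 477 genes that were 2-fold lower, 446 were on none of the lists used here.

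Erythroid genes were split. Their median log2 ratio was 0.23, with 11 of 19 genes higher in both libraries and 7 lower in both. Of all 10527 genes, 40.2% were higher in the oil-labelled library and 41.4% in the tamoxifen-labelled library. Klf1, the erythroid master factor, had 89.0 against 70.4 CPM and 88.6 against 71.4, and Hba-a2, an alpha globin that can share reads with its near-identical copy Hba-a1, 315 against 629 and 581 against 1029. The list shared 514 cells, 19.3% of either set, with the selection. Markers of granulocytes, T cells, B cells, NK cells and endothelium summed to at most 1.30 CPM in any of the 4 groups of cells. At 0 in the selected cells of both libraries were 10 of 12 granulocyte, 7 of 8 T cell, 5 of 7 B cell, 5 of 6 NK cell and 2 of 5 endothelial genes. Markers of monocytes and macrophages summed to between 5.40 and 10.8 CPM, and those of megakaryocytes to between 4.38 and 12.1.

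Interferon-stimulated genes took a smaller share of UMIs in the selected cells. Of 42 measured genes, 39 were lower in both libraries, 7 of them at least 2-fold, and none was higher in both. Of all 10527 genes, 6293 were lower in the oil-labelled library and 6172 in the tamoxifen-labelled library, and 4.53% were at least 2-fold lower in both. The median log2 ratio was -0.54. Summed over the list they had 1125 against 1411 CPM in the oil-labelled library and 1274 against 1809 in the tamoxifen-labelled library. In UMIs the list had 25655 in 1603 selected and 61013 in 5235 other cells of the oil-labelled library. In the tamoxifen-labelled library it had 19599 in 1059 selected and 81900 in 5413 other cells. Per cell it was thus not lower in the selected cells, which held more UMIs. Bst2, the tetherin of the cell surface, stood among the highest with 73.0 against 70.8 CPM and 77.5 against 87.3. Slfn5 stood lowest, at 0.175 against 1.04 CPM and 0.585 against 4.86. Only 196 cells, 7.36% of either set, were both selected cells and among the highest 20% by interferon-stimulated genes, where each set held 20% of all kept cells.

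The comparison of the injections within the selected cells sets the tamoxifen-labelled against the oil-labelled library. Tamoxifen, activity of the recombinase, any deletion of Usp18 and the pool of mice cannot be told apart with 1 library per group. Usp18, the gene that the recombinase deletes, comes first. Its transcript (ENSMUSG00000030107, chr6:121245906-121270917, GRCm38, plus strand, protein-coding) had 5.09 CPM in the selected cells of the oil-labelled library and 8.71 in those of the tamoxifen-labelled library, a log2 ratio of 0.78 (0.41 to 1.15). With 10% of cells selected the ratio was 0.40 (-0.099 to 0.91). In the other cells it had 5.90 and 17.6 CPM, a ratio of 1.58. The transcript was higher in the library that the labels call deleted, and reads at the 3′ end need not show a deleted exon further upstream. These counts thus do not show whether the gene was deleted, which was not tested. The difference of the ratios was -0.80 (-1.22 to -0.39), so the transcript stood less far apart in the selected cells.

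Of 9204 genes with at least 100 UMIs in the selected cells, 17 (0.185%) were at least 2-fold higher in the tamoxifen-labelled library and 13 (0.141%) at least 2-fold lower. The median log2 ratio over these genes was -0.070 in the selected and -0.080 in the other cells. Isg15 was among the 10 highest with at least 20 CPM. It encodes the modifier that Usp18 removes, and had 37.9 CPM in the oil-labelled library and 80.1 in the tamoxifen-labelled library, a log2 ratio of 1.08 (0.95 to 1.21). In the other cells it had 53.1 and 125 CPM, a ratio of 1.23. Under the filter of 5% mitochondrial UMIs and 1000 genes, which left 175 and 114 selected cells, the ratio in them was 2.03. At 3000 UMIs per cell it would be seen in 8.70% and 14.1% of selected cells, against unthinned shares of 27.4% and 36.7%.

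Other interferon-stimulated genes went along with Isg15. Of 37 measured in the selected cells, 30 were higher in the tamoxifen-labelled library, 6 of them at least 2-fold, and 7 were lower, where 35.4% of all 9204 genes were higher. The median was 0.29 in the selected and 0.47 in the other cells. Oasl2, of the 2-5A synthetase family, had 1.93 and 10.2 CPM in the selected cells, a log2 ratio of 2.40 (1.91 to 2.92). Rtp4 had 3.73 and 13.0 CPM, and Xaf1 5.66 and 15.3. Ifit1, which binds foreign RNA, had 0.658 and 2.80 CPM in the selected cells, from 15 and 43 UMIs and so below the minimum of 100, and 1.34 and 12.4 in the other cells, a difference of ratios of -1.12 (-2.06 to -0.19). The difference for Ifit1 was -0.037 (-0.88 to 0.81) with 30% of cells selected and -2.21 with 10%. Psmb8, an immunoproteasome subunit, was lower, at 105 and 92.1 CPM. For 12 of the 37 genes the interval of the difference lay below 0, a smaller ratio in the selected cells, and for 1 above 0. Over all 9204 genes it lay below 0 for 600 and above 0 for 1157.

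Kit differed less between the injections in the selected cells than outside them. The gene encodes the receptor on which the cells were sorted (ENSMUSG00000005672, chr5:75574916-75656722, GRCm38, plus strand, protein-coding). It had 106 CPM in the selected cells of both libraries, a log2 ratio of -0.0019 (-0.093 to 0.089). The other cells had 206 CPM in the oil-labelled library and 274 in the tamoxifen-labelled library, a ratio of 0.42. The difference of the ratios was -0.42 (-0.52 to -0.32), and -0.15 (-0.35 to 0.048) with cells thinned to 3000 UMIs. Both libraries had less Kit in selected cells, by -0.96 and -1.38 on the log2 scale. At 3000 UMIs per cell it would be seen in 26.6% and 24.9% of selected cells and in 41.2% and 47.1% of other cells. Without thinning the shares were 65.1%, 60.0%, 65.8% and 70.7%.

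The integrin genes that the study follows differed little. Itga4 had 178 and 170 CPM in the selected cells, a log2 ratio of -0.069 (-0.14 to 0.0018), and Itgb1 had 196 and 199, a ratio of 0.026 (-0.041 to 0.093). Plk2, a stress-responsive Polo kinase, had no UMI in 1603 and in 1059 selected cells, which allows a UMI in up to 0.230% and 0.348% of such cells and does not limit how many express it. Among the other cells it was seen in none of 5235 in the oil-labelled library and in 11 of 5413 in the tamoxifen-labelled library. Cd34 was seen in 1 selected cell of the oil-labelled library and in none of the tamoxifen-labelled library.

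**Figure D4:**
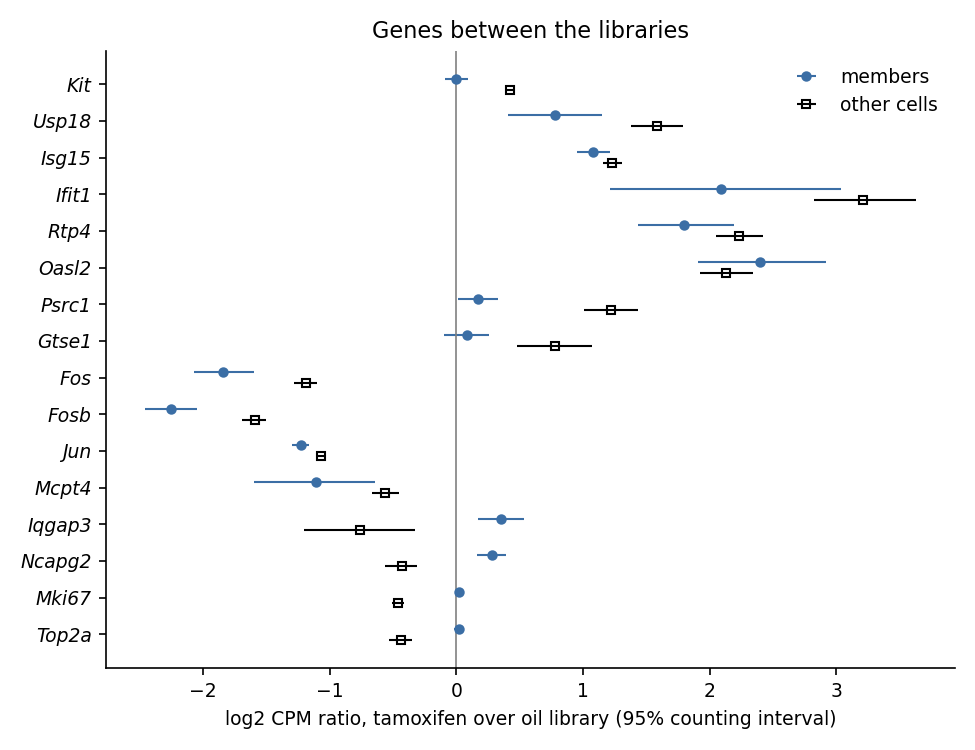
The log2 CPM ratio of tamoxifen-labelled over oil-labelled library (horizontal axis) for 16 genes in selected cells (members, filled circles) and in other cells (open squares), with 95% counting intervals. Kit, Psrc1 and Gtse1 lie near 0 in selected cells and above 0 in other cells, whereas Fos and Fosb lie further below 0 in selected cells.

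One cut on a mitosis score chose the cells of both libraries. Close levels of mitosis genes between the injections may come from the selection and are given as a description. Their median log2 ratio was -0.025 in the selected cells, with 52 of 128 genes higher and 76 lower in the tamoxifen-labelled library, and none 2-fold apart. In the other cells the median was -0.30, with 8 higher and 120 lower. Scaling by TMM would add 0.053 to each ratio in the selected cells and 0.074 in the other cells, which turns the first median above 0. S phase genes had a median of -0.13 in the selected and -0.48 in the other cells. All 41 were lower in the other cells of the tamoxifen-labelled library, and 33 in its selected cells. Of all 9204 genes, 6088 were lower in the other cells and 5949 in the selected cells. For 39 of the 41 S phase genes the interval of the difference lay above 0, as it did for 1157 of the 9204. The share of cells in the third bin, where S phase genes peak, was 11.4% in the oil-labelled library and 8.50% in the tamoxifen-labelled library. What part these shares take in the values of the other cells was not tested.

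Some mitosis genes lay outside that pattern. Kpna2, an importin, had 75.3 and 55.0 CPM in the selected cells, a log2 ratio of -0.45 (-0.57 to -0.33). Pkmyt1, which inhibits Cdk1, had 29.6 and 21.3 CPM, and Tubb4b 935 and 727. Cenpw, a kinetochore subunit, was higher in the tamoxifen-labelled library, at 90.8 and 123 CPM, a ratio of 0.44 (0.35 to 0.53). Sgo1, which protects cohesin, had 71.2 and 86.1 CPM.

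Some ratios between the injections differed between the selected and the other cells. Among genes with at least 20 CPM in the selected cells of either library, the difference was highest for Iqgap3. This gene, a scaffold of the cell cortex, had 24.2 and 30.9 CPM in the selected cells and 2.73 and 1.61 in the other cells, a difference of ratios of 1.11 (0.65 to 1.56). Kif18b, Mxd3, Aspm and Brip1 followed with differences from 0.73 to 0.79. After thinning, those of Kif18b, Mxd3 and Brip1 were -0.57 (-1.81 to 0.68), 0.081 (-0.77 to 0.93) and 0.46 (-0.18 to 1.09). At the other end of these genes stood Psrc1, a spindle regulator, with 32.0 and 36.1 CPM in the selected and 6.22 and 14.5 in the other cells, a difference of -1.05 (-1.31 to -0.79). Gtse1, which stabilises microtubules, had 27.2 and 28.8 CPM in the selected and 3.49 and 5.99 in the other cells, a difference of -0.70 (-1.03 to -0.36). With 10% of cells selected these were -0.43 (-0.69 to -0.18) for Psrc1 and -0.21 (-0.51 to 0.087) for Gtse1, and with the stricter filter that of Psrc1 was -0.13 with an interval on both sides of 0. Both have been described as p53-responsive. Of 13 p53 target genes measured in the selected cells, 9 were higher in the tamoxifen-labelled library and 4 lower. Of all 9204 genes, 35.4% were higher there. The p53 targets had medians of 0.16 in the selected and 0.17 in the other cells, and a part of p53 in these values was not tested. Cdkn1a, the p21 inhibitor of cyclin-dependent kinases, had 70.7 and 101 CPM in the selected and 91.4 and 132 in the other cells. Over all 9204 genes the interval of the difference lay above 0 for 1157 and below 0 for 600.

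Replication histones went up and down gene by gene. Of 50 measured in the selected cells, 36 were higher in the tamoxifen-labelled library and 14 lower, with a median of 0.27 against -0.13 in the other cells. Of all 9204 genes, 35.4% were higher in the selected cells. Hist1h4d had 123 and 221 CPM, a ratio of 0.84 (0.77 to 0.92), and Hist1h2ac had 90.0 and 46.9, a ratio of -0.94 (-1.07 to -0.82). Summed over the whole list the level was 3107 CPM in the oil-labelled library and 3180 in the tamoxifen-labelled library.

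Immediate early genes, which respond within minutes to growth signals and to handling of tissue, were lower in the tamoxifen-labelled library. All 14 were lower in the selected cells, 5 at least 2-fold, and all 14 in the other cells, with medians of -0.73 and -0.52. Of all 9204 genes, 5949 were lower in the selected cells and 6088 in the other cells. Fosb had 70.2 and 14.8 CPM in the selected cells, a log2 ratio of -2.25 (-2.46 to -2.05), and 84.8 and 28.1 in the other cells, a ratio of -1.59. Fos had 41.8 and 11.7 CPM in the selected cells, and Jun 322 and 137. Myc stayed close, at 57.3 and 54.9 CPM. Whether handling of the spleens differed between the pools was not tested.

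Of 12 mast cell genes measured within the selection 10 were lower in the tamoxifen-labelled library, where 5949 of all 9204 genes were lower, with a median of -0.41 in the selected and -0.28 in the other cells. Mcpt1, a mast cell protease, had 71.2 and 36.0 CPM, a ratio of -0.98 (-1.13 to -0.84), and Hdc had 365 and 395. Erythroid genes had a median near 0, at -0.0071, but Rhag, of the Rh complex of red cells, had 30.3 and 59.0 CPM, and Hba-a2 315 and 581. Both genes were also higher in the other cells of the tamoxifen-labelled library. The metallothioneins Mt1 and Mt2 had 642 and 1156 CPM and 373 and 750 CPM in the selected cells. In the other cells they had 739 and 1274 CPM and 419 and 748 CPM. Ddit4, an inhibitor of mTORC1, had 10.5 and 20.2 CPM in the selected and 27.0 and 45.2 in the other cells.

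**Figure D5:**
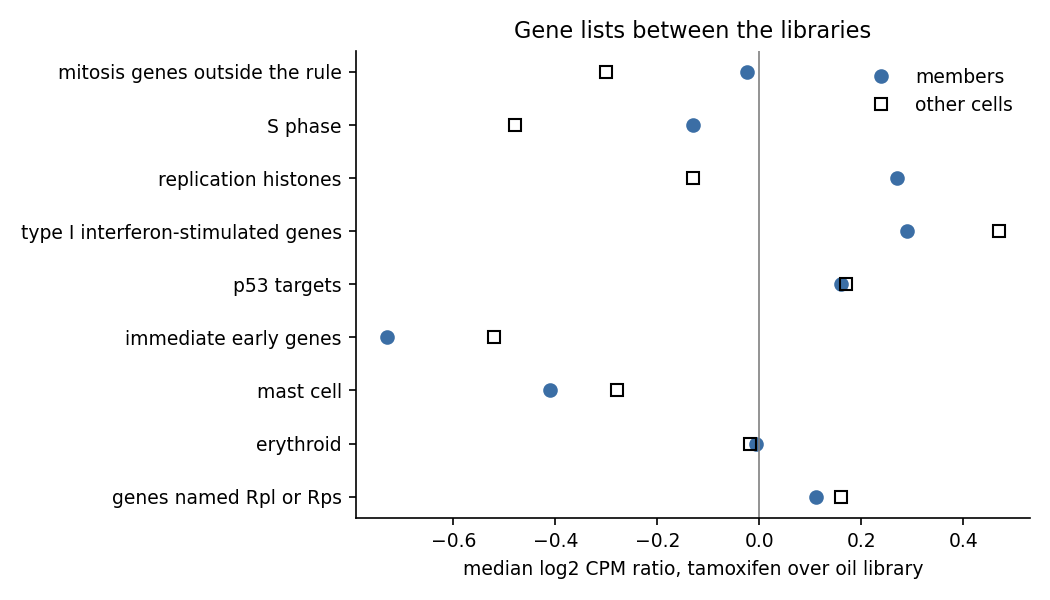
The median log2 CPM ratio of tamoxifen-labelled over oil-labelled library (horizontal axis) of 9 gene lists in selected cells (members, filled circles) and other cells (open squares), 1 library per group. Mitosis genes lie at -0.025 in selected cells and -0.30 in other cells, interferon-stimulated genes at 0.29 and 0.47, and immediate early genes at -0.73 and -0.52.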

How the data were processed

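Each of the 2 libraries was 1 pool of 3 mice. Per the labels and the file headers, the authors ran Cell Ranger 3.0.2 against mm10 on 10x 3′ V3 libraries and deposited UMI counts for 31053 genes per barcode, with no normalization. Barcodes and gene names were also read from the deposited files. The study's Seurat steps were not repeated.

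Kept barcodes had 500 or more genes and up to 10% mitochondrial UMIs. The members and gene lists were chosen with earlier results of these data known. Counts were summed over selected and other cells of each library and divided by their total. Intervals at 95% are exact Poisson (CPM), Clopper-Pearson (shares), conditional binomial (ratios) and delta method (differences of ratios). With 1 library per group no test was run. Counts and medians over genes need 100 UMIs per gene. Shares at 3000 UMIs are expectations over all draws, over cells at least that deep. Doublets were not called.

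Named genes are the 8 markers, list extremes (3 at each end), the 10 highest and 10 lowest ratios and 5 differences at 20 CPM or more, and genes the study follows. Not every gene of this rule is printed. Alternatives changed the cut, filters, markers, depth, scaling (edgeR 4.0.16, DESeq2 1.42.0) and count minimum. Sums and ratios were tested on simulated data. Positions are from GENCODE M21 and promoters from RefSeq on GRCm38.p6. Work was done in R 4.3.3 and Python 3.11.15 with pandas 2.3.3, SciPy 1.17.1 and NumPy 2.4.6.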

Additional observations from a re-analysis of the deposited data

Results flagged for a closer look

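For 12 of 204 named genes the ratio of tamoxifen over oil lay on opposite sides of 0 in selected and other cells, with both counting intervals off 0. With 1 library per group the difference was not tested. Of these genes 11 were higher in the selected and lower in the other cells of the tamoxifen-labelled library. Apart from Iqgap3, these 11 belong to the mitosis or S phase lists. The mitosis genes outside the rule had medians of -0.025 in the selected and -0.30 in the other cells. One cut on a mitosis score made both sets of cells, so these opposite signs are given as a description. What part the cut takes in them was not tested. The differences of the log2 ratios were 1.11 for Iqgap3, 0.72 for the repair factor Rad51ap1, 0.71 and 0.42 for the condensin subunits Ncapg2 and Ncaph, and 0.67, 0.61 and 0.48 for Ska3, Sgo1 and Spc25, which act at the kinetochore or centromere. For Dlgap5 of the spindle the value was 0.46, for the cytokinesis genes Cit and Prc1 it was 0.42 in each, and for the chromatin protein Hmgb2 it was 0.29. Bax, which permeabilises mitochondria, went the other way at -0.11, with ratios of -0.066 (-0.12 to -0.010) and 0.046 (0.0085 to 0.084). The scalings tried would add from 0.051 to 0.057 to the first ratio and at most 0.074 to the second. Both ratios keep their signs, but the interval of the first then reaches across 0 under each scaling. Over all 9204 genes 49 were higher in the selected and lower in the other cells in this way, and 25 the reverse.

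Some barcodes that the filter left out also had a marker share at or above that of the lowest selected cell. They were 18.6% (16.1 to 21.2) of 936 left-out barcodes in the oil-labelled library and 10.8% (8.82 to 13.1) of 839 in the tamoxifen-labelled library, beside 23.4% and 16.4% of the kept cells. A count of 0 would have allowed 0.321% and 0.358%. Among barcodes with over 10% mitochondrial UMIs the shares were 15.7% and 9.91%. Among those with under 500 genes they were 23.9% and 11.9%. These had medians of only 667 and 809 UMIs, where few marker UMIs suffice to reach the cut.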

How the results depend on the processing

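No paired analysis was possible because the groups hold a single library each. The ranking, filter and scaling were changed 1 at a time, except that the stricter filter moved both of its limits together, and leaving out a replicate could not be done. Equal shares of 20% from each library fix the share by construction and gave no ratio for it.

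Values of the main results outside the range set around the reported value were these. For shares and single genes that range is the counting interval. For a list median it is the median half-width of the intervals of its genes, which is no interval of the median itself. For the ratio of UMIs per cell it comes from intervals of the medians. The log2 ratio of the shares of selected cells was -0.69 with cells thinned to 3000 UMIs and -0.81 under a stricter filter of 1000 genes and 5% mitochondrial UMIs. The median of mitosis genes, selected over other cells, was 1.84 with 10% and 2.42 with 30% of cells, 2.40 without the deepest 6% of cells and 2.34 after thinning. That of S phase genes was -0.054 with 10%, 0.78 with 30%, 0.27 without Top2a and Mki67 in the ranking, 0.52 with the stricter filter, 0.62 without the deepest cells and 0.71 after thinning. The Isg15 ratio was 0.84 with 10% of cells, 1.28 after thinning and 2.03 with the stricter filter, under which its difference of selected minus other cells reversed from -0.15 to 0.55. The ratio of UMIs per cell was 1.77 without the deepest cells.

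Among counts, the 477 genes lower in selected cells became 723 with a minimum of 20 UMIs and 268 with 500. The 17 genes higher with tamoxifen became 11 with 10% of cells, 7 after thinning, 5 with the stricter filter, 77 with 20 UMIs and 3 with 500. The 13 genes lower became 20 with the stricter filter, 92 with 20 UMIs and 6 with 500. The cause was not tested, except that the minimum sets how many genes are counted. Of 706 values for single genes under alternatives, 690 kept their sign, and 164 lay outside the counting interval of the reported value. The stricter filter left 673 and 771 cells, and low counts limit genes under a few CPM.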

Other observations

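Genes of G1 arrest, cell death and stem cells give further values. Among 17 G1 cyclins and inhibitors, Cdkn2d, an INK4 inhibitor, had 85.7 against 38.7 CPM in the selected and other cells of the oil-labelled library and 94.9 against 42.1 in the tamoxifen-labelled library. Cdkn1b, the p27 inhibitor, had 61.7 against 83.2 CPM and 74.2 against 92.9. As a share of UMIs, 16 of 17 genes of apoptosis and pyroptosis were lower in the selected cells of both libraries, 1 of them at least 2-fold. Their median log2 ratio was -0.27, beside -0.095 over all 10527 genes. Of these 10527, 6293 were lower in the oil-labelled library and 6172 in the tamoxifen-labelled library. Among 8 stem and progenitor genes, Lmo2 was higher, at 162 against 114 CPM and 145 against 104, and the other 7 were lower in both libraries. Genes whose names begin with Rpl or Rps, a list that holds some kinases too, had a median of -0.026 and summed to 223629 against 223185 CPM in the oil-labelled library and 250599 against 259076 in the tamoxifen-labelled library.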
